A study of Macaca mulatta with 9 samples.

Results

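Oocyte-restricted genes were followed in whole small antral follicles (SAFs) of rhesus macaques, the stage at which the follicle has just opened a cavity of fluid. The genes sought were FIGLA, NLRP14, GDF9, BMP15, ZP2 and ZP3, and a probe set was taken where the array annotation gave exactly 1 of these symbols. That gave 5 probe sets of 4 genes out of 52766 non-control probe sets: 1 each for FIGLA (MmugDNA.27793.1.S1_at), BMP15 (MmuSTS.3212.1.S1_at) and ZP3 (MmugDNA.16160.1.S1_at), and 2 for NLRP14, called A (MmuSTS.1761.1.S1_at) and B (MmugDNA.5209.1.S1_at) here. The annotation named no probe set for the other 2 genes, GDF9 and ZP2, which were not analysed here. All 5 probe sets were among the 26383 that were tested.

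All 9 arrays came from females that were young adults and were sampled at or near menses, and the labels give 3 biological replicates in each of 3 groups. WSD+T females ate a western-style diet and had chronic T (testosterone), described as raised androgen, WSD females ate that diet alone, and control females ate a standard diet. No group had T with the standard diet, so T was compared only within the western-style diet. The dose of T is not given by the labels. Each sample was a pool of SAFs from 1 ovary, 3.7 ± 0.3 per ovary by the submitters' account (kind of error not stated), and each pool held granulosa cells, follicle wall and cumulus-oocyte complexes together. Follicles with dark oocytes or dark granulosa cells had been passed over when the SAFs were picked. In such a mixture fewer or smaller oocytes relative to the other cells and less RNA of a gene per oocyte cannot be told apart.

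Every antral follicle carries a single oocyte within a far greater mass of somatic cells. FIGLA is a germ-cell transcription factor which, in mice, is needed for primordial follicles to form and for the zona pellucida genes to be expressed. ZP3 encodes a glycoprotein of the zona pellucida, the coat around the egg that sperm must bind and cross. BMP15 is a TGF-beta family ligand that the oocyte secretes and that acts on granulosa and cumulus cells, in partnership with GDF9. NLRP14 belongs to a family of NLR proteins, several of which are stored in the egg and used by the early embryo.

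Values are linear MAS5 signals, which the submitters scaled to 1 common trimmed mean (200.01 on each array), and differences are on the scale of log2(signal + 16), which understates the change of dim probe sets. A signal of 21.2 is the level below which, on average over the arrays, a probe set was not tested. Median signals per array ran from 15.9 on WSD replicate 3 to 23.8 on control replicate 3. WSD replicates 2 and 3 were the least alike of any pair within a group (correlation over tested probe sets 0.862), and WSD+T replicates 1 and 3 the most alike (0.993).

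FIGLA had signals of 108, 146 and 188 in WSD+T follicles, against 62.8, 31.8 and 26.6 in WSD follicles and 45.7, 30.1 and 9.96 in control follicles. All WSD+T arrays lay above all other arrays, while WSD and control overlapped. The means were 147 ± 39.8 in WSD+T, 40.4 ± 19.5 in WSD and 28.6 ± 17.9 in control (SD, n = 3 each), so that the mean signal in WSD+T was 5.15 times that in control and 3.65 times that in WSD. FIGLA thus ranked WSD+T, WSD, control, and the last 2 did not differ beyond their spread.

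NLRP14, probe set A, had signals of 288, 261 and 231 in WSD+T follicles, against 47.8, 103 and 15.7 in WSD follicles and 123, 87.1 and 54.0 in control follicles. Here too the WSD+T arrays stood clear of the other 6, and WSD and control overlapped. Group means were 260 ± 28.5, 55.4 ± 44.0 and 88.2 ± 34.8 (SD, n = 3 each) in WSD+T, WSD and control, giving ratios of 4.68 to WSD and 2.94 to control. The highest WSD array was 6.53 times the lowest, whereas the WSD+T arrays differed by 1.25 times at most.

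The dimmer NLRP14 probe set, B, read 62.6, 57.2 and 74.8 in WSD+T follicles, against 25.8, 48.3 and 8.53 in WSD follicles and 41.2, 54.4 and 18.6 in control follicles. Its WSD+T arrays also lay above all others, but control replicate 2 came close to the lowest of them. The ratios of mean signals were 2.36 to WSD and 1.70 to control, smaller than for A. For either NLRP14 probe set the order of the group means was WSD+T, control, WSD.

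ZP3 was the probe set with the highest signals of the 5, 416, 517 and 442 in WSD+T follicles, 302, 365 and 143 in WSD follicles and 297, 261 and 152 in control follicles. Again no WSD or control array reached the lowest WSD+T array. The means were 458 ± 52.2 in WSD+T, 270.2 ± 114 in WSD and 236 ± 75.6 in control (SD, n = 3 each), or 1.70 times WSD and 1.94 times control.

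BMP15 stayed close to the signal of the filter, at 24.3, 35.8 and 30.9 in WSD+T follicles, against 18.1, 40.5 and 6.23 in WSD follicles and 35.6, 10.8 and 14.2 in control follicles. All 3 groups overlapped, and 2 of 3 WSD arrays and 2 of 3 control arrays were under 21.2, against none in WSD+T. Its means of 30.3 ± 5.80, 21.6 ± 17.4 and 20.2 ± 13.4 in WSD+T, WSD and control (SD, n = 3 each) did not differ beyond the spread between arrays.

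**Figure D1:**
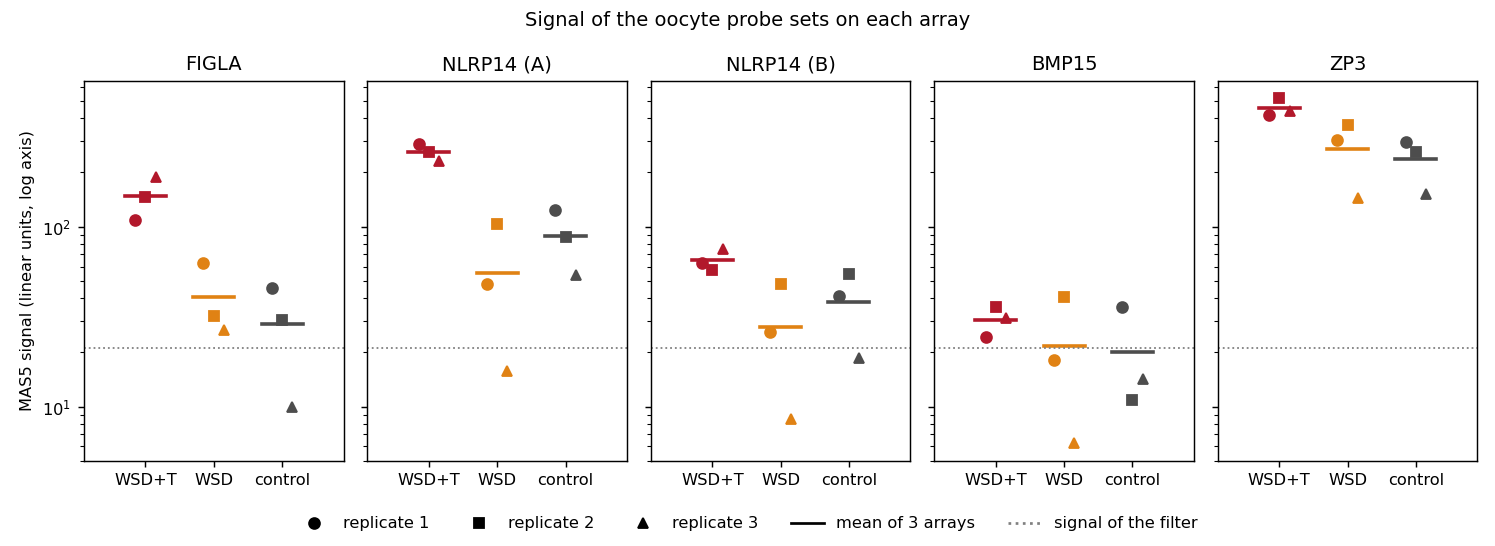
MAS5 signal (log axis) of each oocyte probe set on each of the 9 arrays by group, with symbols for replicates, solid lines for the mean of 3 arrays and a dotted line at the filter's signal of 21.2. In FIGLA, NLRP14 A, NLRP14 B and ZP3 the 3 WSD+T arrays lie above all 6 others; in BMP15 the groups overlap, and the third replicate of WSD is the lowest of all arrays in every panel but FIGLA.

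Set against control, WSD+T follicles had more FIGLA RNA by limma, with a difference of 1.93 on the log2 scale (SE 0.36, 95% interval 1.12 to 2.75, adjusted p = 0.0380). It was the 1 member of 5 called in this comparison, where 1.97% of all tested probe sets were called (0.542% higher and 1.43% lower). At an unadjusted p under 0.05 stood 3 of the 5, against 19.2% of all tested probe sets. NLRP14 A differed by 1.45 (SE 0.44, 95% interval 0.45 to 2.45), which did not pass adjustment over all probe sets (limma's adjusted p = 0.132). ZP3 differed by 0.95 (95% interval 0.17 to 1.74, limma's adjusted p = 0.189) and NLRP14 B by 0.64 (-0.19 to 1.47, adjusted p = 0.377). For BMP15 the difference was 0.41 (95% interval -0.40 to 1.22, limma's adjusted p = 0.571), an interval that holds no change and also a rise larger than that of ZP3. BMP15 passed the filter through its WSD+T arrays, with mean log2 values of 5.53 in WSD+T, 5.13 in WSD and 5.12 in control beside the limit of 5.22. It fell out of the test without WSD+T replicate 2, WSD replicate 2 or control replicate 1.

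In 4 of the 5 probe sets every WSD+T array exceeded every control array, and the same share of all tested probe sets was 18.8% (36.8% in either direction). The exact permutation test over the arrays gave p = 0.1 (two-sided) for each of these 4, the smallest value that 3 arrays against 3 allow. FIGLA's call was kept in 4 of 9 fits that left out 1 array, with limma's adjusted p from 0.0248 to 0.175. Without WSD+T replicate 1, 2 or 3 the adjusted p was 0.138, 0.116 or 0.175, and without control replicate 2 or 3 it was 0.0977 or 0.0926. The difference itself stayed between 1.58 and 2.21 in these fits. Calls over all tested probe sets fell as well, from 520 with 9 arrays to 0 without WSD+T replicate 1 or 3. Losing the call there thus says nothing of FIGLA in particular. There were 123 calls without WSD+T replicate 2, 97 without control replicate 2 and 104 without control replicate 3.

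WSD+T set against WSD asks what T added on the western-style diet. NLRP14 A was higher in WSD+T by 2.14 on the log2 scale (SE 0.44, 95% interval 1.14 to 3.14, limma's adjusted p = 0.0441), the 1 member called of 5, where 2.99% of all tested probe sets were called (2.04% higher and 0.948% lower). At an unadjusted p under 0.05 stood 4 of the 5, against 20.9% of all tested probe sets. FIGLA differed by 1.56 (SE 0.36, 95% interval 0.74 to 2.37), just short of the threshold in limma (adjusted p = 0.0555). NLRP14 B differed by 1.00 (95% interval 0.17 to 1.83, limma's adjusted p = 0.167), ZP3 by 0.82 (0.03 to 1.60, adjusted p = 0.221) and BMP15 by 0.40 (-0.41 to 1.20, adjusted p = 0.590). In 4 of 5 probe sets the WSD+T and WSD arrays did not overlap with WSD+T higher, against 17.5% of all tested probe sets and 28.5% in either direction (exact permutation p = 0.1 for each, two-sided, the smallest this design allows).

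The call on NLRP14 A was kept in 2 of 9 fits that left out 1 array, without WSD replicate 2 (limma's adjusted p = 0.0204) or WSD replicate 3 (0.0351). In the other 7 fits its adjusted p ran up to 0.170 and the difference was between 2.07 and 2.22. Without WSD replicate 3, the dimmest array, the difference was 1.66, and without WSD replicate 2 it was 2.61. Of all tested probe sets, 789 were called with 9 arrays, 0 without WSD+T replicate 1 or 2 and 2 without WSD+T replicate 3. Losing the call there thus says nothing of NLRP14 A in particular. The fits that kept it called more probe sets, 1548 without WSD replicate 2 and 1488 without WSD replicate 3.

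WSD set against control, the comparison of the diet alone, called none of the 5 members (limma), where 14.5% of all tested probe sets were called (4.78% higher and 9.68% lower). None of the 5 had an unadjusted p under 0.05, against 31.1% of all tested probe sets. FIGLA differed by 0.37 (95% interval -0.44 to 1.19, limma's adjusted p = 0.508) and ZP3 by 0.14 (-0.65 to 0.92, adjusted p = 0.816). NLRP14 A differed by -0.69 (95% interval -1.69 to 0.31, limma's adjusted p = 0.317) and NLRP14 B by -0.36 (-1.19 to 0.47, adjusted p = 0.533). BMP15 differed by 0.01 (95% interval -0.79 to 0.82, adjusted p = 0.986). The intervals of all 5 hold 0 and also reach 0.82 or more in 1 direction, so the arrays do not show that the diet left oocyte RNA as it was. Groups overlapped in all 5 probe sets, against 30.8% of tested probe sets whose WSD and control arrays did not overlap (10.6% with WSD higher).

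**Figure D2:**
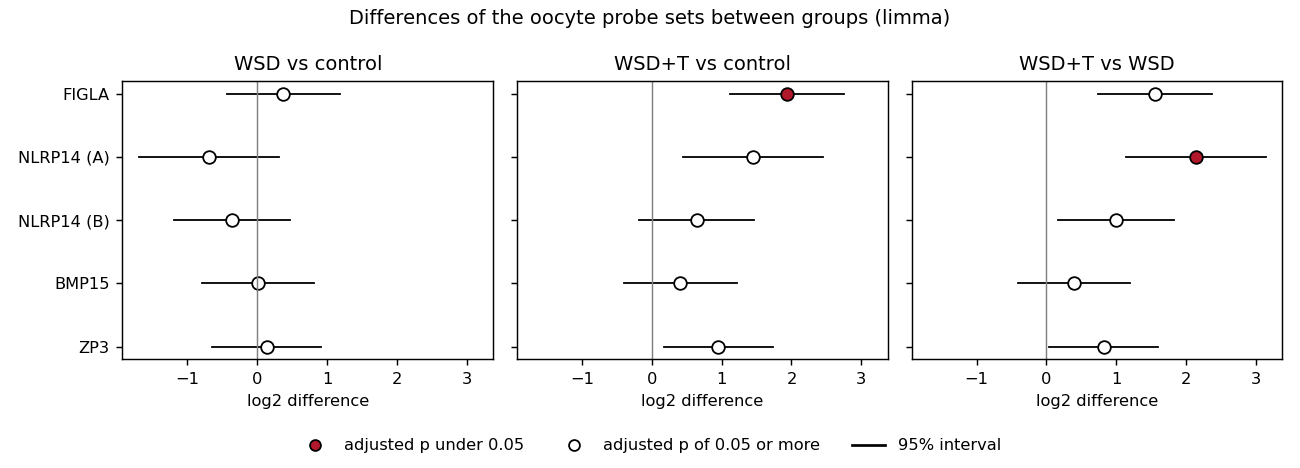
Differences on the log2(signal + 16) scale of the 5 oocyte probe sets in the 3 comparisons, with 95% intervals from limma; filled points have an adjusted p under 0.05. FIGLA in WSD+T vs control (1.93) and NLRP14 A in WSD+T vs WSD (2.14) are filled, and each interval of WSD vs control spans 0.

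Tested over the 3 groups at once by limma's F test, FIGLA (adjusted p = 0.0228) and NLRP14 A (adjusted p = 0.0348) passed, and ZP3 (0.156), NLRP14 B (0.189) and BMP15 (0.604) did not, where 11.7% of all tested probe sets passed. The comparisons share arrays and are not independent of each other. The fit used 1 spread per probe set for all groups, while the WSD+T arrays varied less than the others. The SD of the members' log2 values was 0.15 to 0.36 in WSD+T, 0.47 to 0.95 in WSD and 0.48 to 0.64 in control, beside median SDs over tested probe sets of 0.14, 0.31 and 0.22 in the same groups.

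**Figure D3:**
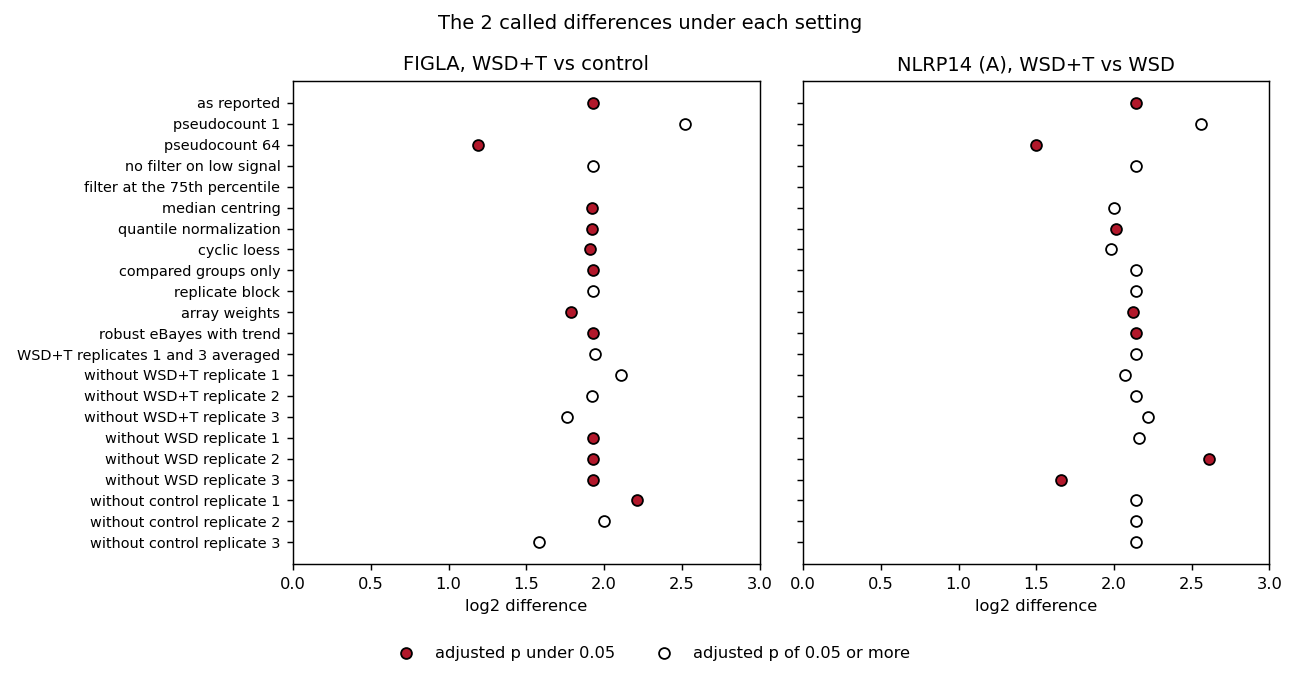
The log2 difference of FIGLA in WSD+T vs control and of NLRP14 A in WSD+T vs WSD under each setting tried; filled points have an adjusted p under 0.05, and neither probe set passed the filter at the 75th percentile. Each difference stays above 1 while the adjusted p crosses the threshold, and FIGLA loses its call when any 1 of the 3 WSD+T arrays is left out. Without WSD+T replicate 1 or 3, 0 of all tested probe sets were called in WSD+T vs control.

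Within WSD, replicate 3 was the lowest array for all 5 probe sets, while within WSD+T and control the lowest replicate depended on the probe set. Averaged over the 4 genes (1 probe set each, centred log2 values), the members stood at 0.67, 0.90 and 0.85 on the WSD+T arrays. On the WSD arrays the mean was -0.23, 0.06 and -1.11, and on the control arrays 0.11, -0.39 and -0.87. WSD replicate 3 was thus the lowest array and control replicate 3 the second lowest. WSD replicate 3 was the lowest of 9 arrays in all members but FIGLA, for which control replicate 3 was lowest, with 9.96.

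Other oocyte genes gave a wider view. Of 39 symbols listed for further oocyte genes, the annotation named 25 and 20 were tested. H1FOO and H1-8 among them are 2 symbols of 1 gene, and neither was named. Among these 20, 18 had a positive difference in WSD+T vs control, with a median of 0.82 beside -0.01 over all tested probe sets. None of them passed limma's adjustment there, although 8 of 20 had an unadjusted p under 0.05, against 19.2% of all tested probe sets. In 12 of 20 every WSD+T array exceeded every control array, against 18.8% of all tested probe sets, and in 1 every WSD+T array was below. Against WSD, 18 of 20 had a positive difference as well (median 0.66 beside 0.09 over all tested probe sets), and 8 of 20 had WSD+T arrays above all WSD arrays, against 17.5% of all tested probe sets, and 2 of 20 below. The filter used the mean over all arrays, so a listed gene could pass it through its WSD+T arrays, as BMP15 did. LHX8 averaged 21.1 in control, under the filter's signal of 21.2, and ZP1 was near that signal in every group. Both are among the genes with a positive difference, while named genes under the filter are in no count. The effect of the filter on the counts of positive differences and on the medians was not tested. In WSD vs control 11 of 20 were positive, with a median of 0.03 beside -0.08. There 3 of 20 were called, near the 14.5% of all tested probe sets. GPR3, ZP4 and NLRP7, described further on, are thus single genes and do not set the list apart. In the same comparison ELAVL2 was not called by its counted probe set (-1.35, limma's adjusted p = 0.126). A dimmer probe set of ELAVL2 was called lower (-0.93, limma's adjusted p = 0.0275).

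The largest of these differences in WSD+T vs control was that of OOEP, a subunit of the egg's subcortical maternal complex, which is given here after its values were seen. It had signals of 271, 262 and 341 in WSD+T follicles, against 108, 193 and 62.5 in WSD follicles and 140.2, 137 and 86.5 in control follicles. All WSD+T arrays lay above all others, but the differences of 1.18 (SE 0.34, limma's adjusted p = 0.114) from control and 1.27 (SE 0.34, adjusted p = 0.0771) from WSD did not pass. NPM2, a histone chaperone of the egg, also chosen after its values were seen, read 129, 154 and 152 in WSD+T, 62.6, 96.7 and 24.8 in WSD and 66.8, 65.5 and 49.5 in control (1.08 from control, limma's adjusted p = 0.131). NLRP5, a further subunit of the maternal complex, read 112, 142 and 142 in WSD+T, against 38.9, 80.9 and 9.90 in WSD and 90.7, 68.9 and 19.3 in control. Its difference from control was 1.11 (SE 0.52, limma's adjusted p = 0.284). KIT, the receptor on the oocyte for a growth factor made by granulosa cells, averaged 154 ± 33.2 in WSD+T, 121 ± 43.9 in WSD and 66.6 ± 31.0 in control. Its WSD+T arrays lay above the control arrays (difference 1.10, limma's adjusted p = 0.144) but overlapped those of WSD (0.35, adjusted p = 0.633). The gene of its ligand, KITLG, was near the filter's signal at 19.4 ± 2.60 in WSD+T, 26.4 ± 4.49 in WSD and 25.4 ± 6.80 in control.

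Not every oocyte gene followed this order. The zona pellucida gene ZP4 read 728, 868 and 793 in WSD follicles, against 532, 349 and 293 in control follicles, and rose by 1.04 on the log2 scale (SE 0.26, limma's adjusted p = 0.0310). In WSD+T follicles it read 457, 287 and 478, which was -0.97 relative to WSD (limma's adjusted p = 0.0771). Its 2 other tested probe sets were also called higher in WSD vs control (1.71 and 1.01). ZP1, the fourth zona gene listed, was dim, at 26.1 ± 3.18 in WSD+T, 23.7 ± 20.7 in WSD and 23.9 ± 18.9 in control. ZP3 and ZP4, products of which sit in the same coat, thus had different group orders, ZP3 highest in WSD+T and ZP4 highest in WSD, although the difference between the genes was not tested.

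GPR3, a receptor that in mice keeps the oocyte's cyclic AMP high and its meiosis arrested, read 163, 175 and 159 in WSD follicles, against 39.0, 20.6 and 33.7 in control follicles. It was higher in WSD by 1.97 (SE 0.30, limma's adjusted p = 0.00702), and the call was kept in all 9 fits without 1 array (adjusted p up to 0.0277). In WSD+T follicles it read 45.5, 27.0 and 89.3, lower than WSD by limma (-1.47, SE 0.30, adjusted p = 0.0442). That call was kept only without WSD replicate 3 (limma's adjusted p = 0.0493, up to 0.170 in the others). Without a WSD+T replicate, however, only 0 to 2 of all tested probe sets were called in that comparison. NLRP7, a human maternal-effect gene, fell to 803 ± 135 in WSD, against 1238 ± 92.1 in control (-0.62, limma's adjusted p = 0.0285). Over fits without 1 array its adjusted p was 0.0236 to 0.0827, and it passed only without WSD replicate 1 or 3. Another NLRP7 probe set was also called lower (-0.83), and the dimmest was not called (-0.10). ZP4 missed the threshold without WSD+T replicate 1, WSD replicate 1 or 2, or control replicate 2 or 3 (adjusted p 0.0525, 0.0609, 0.0657, 0.0937 and 0.0946). In the fit to WSD and control alone ZP4 (limma's adjusted p = 0.0692) and NLRP7 (0.109) were not called, and GPR3 was (0.0274). That fit called 913 of all tested probe sets, against 3817 as reported. On WSD replicate 3, lowest for the member mean, ZP4 (793), GPR3 (159) and NLRP7 (754) stood near the other WSD arrays. Whether their signals came from the oocyte was not tested.

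**Figure D4:**
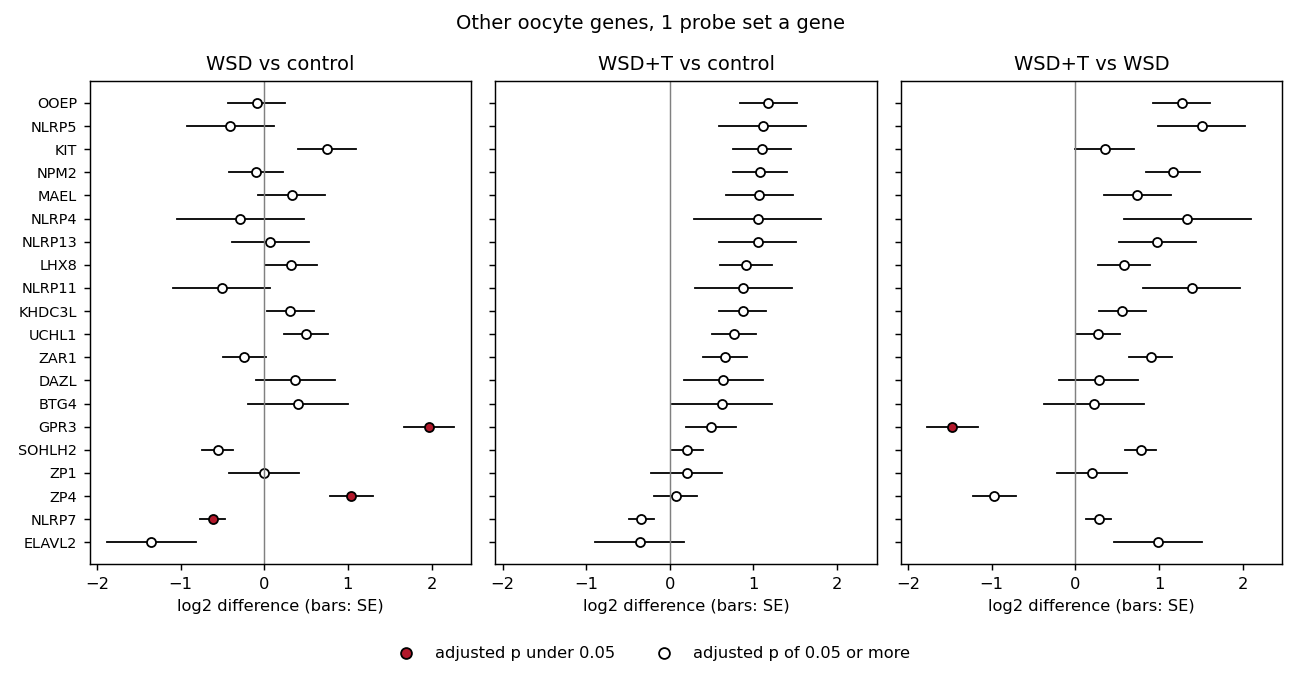
Log2 differences with SE of the 20 tested genes of the wider oocyte list in the 3 comparisons, ordered by WSD+T vs control; filled points have an adjusted p under 0.05. In WSD+T vs control 18 of 20 lie above 0 with none filled, while in WSD vs control 3 of 20 are filled (14.5% of all tested probe sets were called), GPR3 and ZP4 above 0 and NLRP7 below.

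Of the oocyte transcription factors listed, NOBOX had a mean signal of 5.19 and SOHLH1 of 1.32, both under the filter. SOHLH2 and LHX8 passed the filter and were not called in any comparison (limma). SOHLH2 averaged 159 ± 35.5 in WSD+T, 85.0 ± 13.1 in WSD and 133 ± 18.3 in control. LHX8 averaged 51.8 ± 8.15 in WSD+T, 31.2 ± 16.4 in WSD and 21.1 ± 11.4 in control. DAZL, which encodes an RNA-binding protein of germ cells, was 47.6 ± 7.98 in WSD+T, 45.7 ± 41.3 in WSD and 26.0 ± 14.1 in control. The annotation named no probe set for DDX4, which was not analysed here.

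On the side of the cells that receive oocyte ligands, the listed receptors and SMADs of GDF9 and BMP15 had 9 tested genes of 14. In WSD+T vs control none of the 9 was called (limma, 1 at an unadjusted p under 0.05; median 0.05). Against WSD 1 of 9 was called, where 2.99% of all tested probe sets were, the activin type I receptor ACVR1B, at 222 ± 20.2 in WSD+T and 85.8 ± 29.7 in WSD (1.26, limma's adjusted p = 0.0340). The call was lost when any 1 of the WSD+T replicates, WSD replicate 1 or control replicate 1 was left out (adjusted p up to 0.155). Without a WSD+T replicate, 0 to 2 of all tested probe sets were called, so those fits do not single out ACVR1B. In WSD vs control 2 of 9 were called, against 14.5% of all tested probe sets. The GDF9 type I receptor TGFBR1 was higher (0.42, limma's adjusted p = 0.0475) and the common mediator SMAD4 was lower (-0.71, limma's adjusted p = 0.0135). TGFBR1 passed in none of 9 fits without 1 array (0.0533 to 0.129) and SMAD4 in all 9. In the fit to WSD and control alone neither passed (limma's adjusted p = 0.166 for TGFBR1 and 0.0700 for SMAD4). SMAD4 also missed the threshold under median centring (limma's adjusted p = 0.0516). The annotation did not name BMPR2 or BMPR1B among tested probe sets.

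Genes listed as cumulus targets of GDF9 and BMP15, with 10 tested of 14, had none called in WSD+T vs control (limma, 1 at an unadjusted p under 0.05, median -0.10). None was called in WSD+T vs WSD either (limma, 3 at an unadjusted p under 0.05, median -0.29). There 1 of 10 was positive, and in 7 of 10 every WSD+T array was below every WSD array. Of all tested probe sets, 28.5% had no overlap there in either direction, 17.5% with WSD+T higher and only the remainder with WSD+T lower. In WSD vs control, where 4.78% of all tested probe sets were called higher, 2 of 10 rose, HAS2, the hyaluronan synthase of the expanding cumulus, and TNFAIP6, which cross-links its product. HAS2 averaged 733 ± 466 in WSD and 90.0 ± 59.6 in control (2.80, limma's adjusted p = 0.0356). That call was lost without WSD+T replicate 1, WSD replicate 1 or control replicate 2 or 3 (adjusted p 0.0599, 0.101, 0.0792 and 0.110). It was also lost in the fit to WSD and control alone (limma's adjusted p = 0.0673). TNFAIP6 averaged 699.9 ± 239 in WSD and 109.8 ± 93.7 in control (2.70, limma's adjusted p = 0.00984), and kept its call in the fit to WSD and control alone (0.0461). In WSD+T these genes were at 151 ± 137 and 188 ± 54.2. Among 3 tested genes listed as egg coat and fertilisation partners, ZP4 was the gene called, in WSD vs control.

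Markers of other follicle cells also differed between these arrays. The granulosa list (12 tested of 15 genes) summed to 9851 to 11425 in WSD+T, 7757 to 12967 in WSD and 14067 to 18428 in control, and 2 of 12 genes were called lower in WSD+T vs control, against 1.43% of all tested probe sets. The theca and stroma list (9 of 13) summed to 10040 to 11380 in WSD+T, 7891 to 12987 in WSD and 11649 to 12154 in control, with 2 of 9 called lower in that comparison. By mean centred log2 values the control arrays were the highest 3 for that list too (0.60, 0.71 and 0.60). Of the proliferation list (13 of 15), 7 of 13 were called lower in WSD+T vs control and 9 of 13 in WSD vs control, where 9.68% of all tested probe sets were called lower. The wider oocyte list summed to 5650 to 6408 in WSD+T, 3753 to 5615 in WSD and 3764 to 4966 in control.

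The myeloid list (7 of 10) summed to 12304 to 13738 in WSD+T, 794 to 19163 in WSD and 1493 to 7826 in control, and the endothelial list (7 of 8) to 2039 to 2354, 515 to 3835 and 1059 to 1690.0. In WSD+T vs control all 7 tested myeloid genes and all 7 tested endothelial genes had a positive difference, with medians of 2.43 and 0.82. In 6 of 7 genes of each list every WSD+T array exceeded every control array, against 18.8% of all tested probe sets. The median of the endothelial list thus equalled that of the wider oocyte list, and the median of the myeloid list was larger. In WSD+T vs WSD all 7 of each list were positive too (medians 1.13 for myeloid and 0.88 for endothelial), and 2 of 7 endothelial genes and none of the myeloid genes had WSD+T arrays above all WSD arrays. No gene of either list was called in any comparison by limma, with 1 myeloid and 2 endothelial genes at an unadjusted p under 0.05 in WSD+T vs control. No marker was at 0 on any array. WSD replicate 3, the lowest array for the member mean, was also the lowest in the myeloid and endothelial lists, while WSD replicate 2 was the highest in both. In the theca and stroma list WSD replicate 3 was lowest too, level with WSD replicate 1 when rounded (mean centred log2 -0.64 each). The part of these cells, and of the lower granulosa signal, in the higher FIGLA and NLRP14 of WSD+T follicles was not tested.

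**Figure D5:**
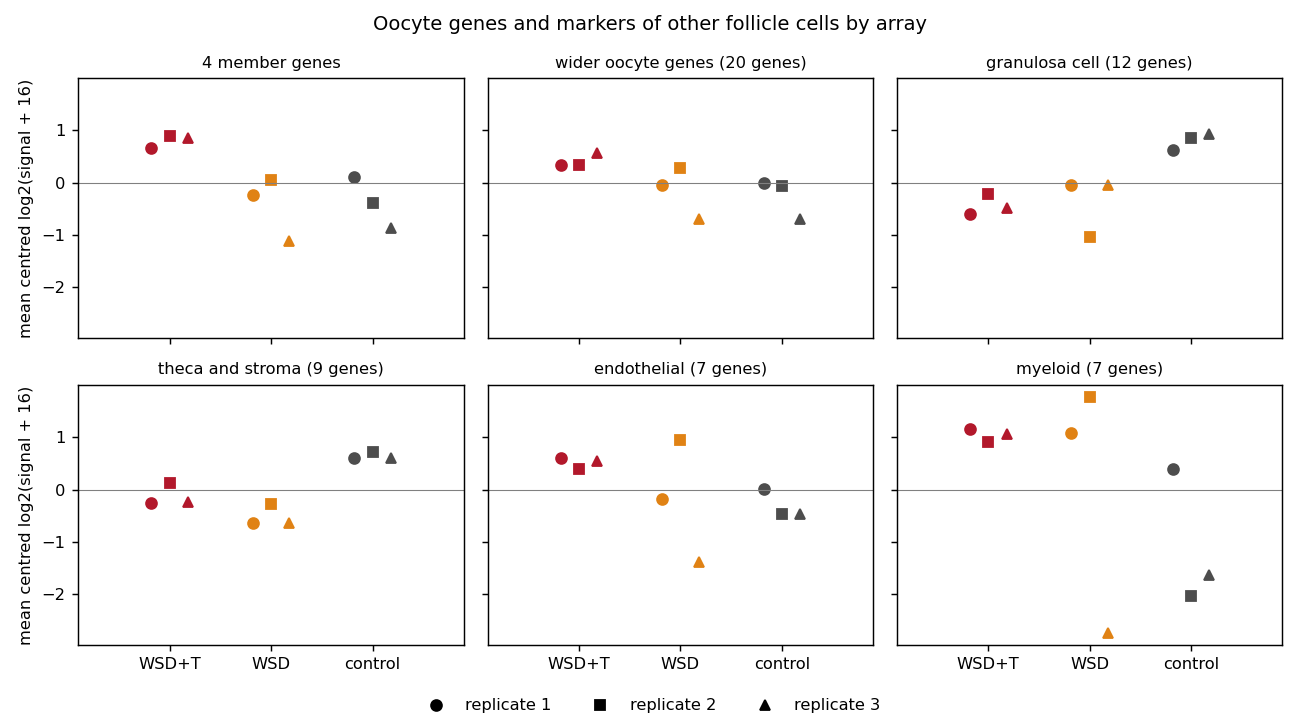
Mean centred log2(signal + 16) of the 4 member genes, the wider oocyte list and lists of granulosa, theca and stroma, endothelial and myeloid markers on each array by group. WSD+T arrays are the highest 3 for the members and the wider oocyte list, and control arrays the highest 3 for granulosa and for theca and stroma markers. WSD replicate 3 is lowest for members, wider oocyte genes, endothelial and myeloid markers. It is also lowest for theca and stroma markers, where WSD replicate 1 is level with it when rounded (-0.64 each).

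Likeness between genes was measured as the root mean square difference of 9 centred log2 values, over 10001 other genes with 1 probe set each. All arrays share the group structure, so small differences are found among genes of many kinds. For NLRP14 A the nearest gene was NLRP5 (0.35), followed by ADAMTS5 (0.37) and THBS4 (0.39), where the median over all genes was 1.05. FIGLA was nearest to PCDH10 (0.40), FGD6 (0.47) and MROH1 (0.50), with a median of 0.97, and ZP3 was 9th among genes for FIGLA if placed by its difference of 0.54. ZP3 itself lay nearest to OSGIN1 (0.15), TCL1B (0.16) and NLRP3 (0.16), with a median of 0.65. BMP15 lay nearest to HYAL1 (0.16), RAMP2 (0.17) and PCDHA11 (0.17), with a median of 0.54, but its own range over the arrays was 1.35 and near the filter.

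PCDH10, the gene nearest to FIGLA, read 185, 188 and 206 in WSD+T, 53.0, 75.2 and 39.3 in WSD and 37.9, 61.8 and 29.5 in control. Its WSD+T arrays lay above all others, and its WSD and control arrays overlapped. PCDH10 was picked for its likeness to FIGLA over these same arrays, so this pattern is no separate observation. The A and B probe sets of NLRP14 differed from each other by 0.54, farther apart than 30 genes were from A.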

How the data were processed

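The authors deposited 1 intensity for each probe set and array on a linear scale, computed by MAS5 (version not given) per the submitters' processing notes. Per the labels' protocols, RNA of each pool was amplified with NuGEN reagents before labelling for 1-colour arrays. MAS5 settings and the genome build were not given in the sources used here.

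Symbols came from the array's platform annotation, which can be old. Of 52766 non-control probe sets 24956 had 1 symbol, 361 several and 27449 none listed. All 5 member probe sets kept their symbol when their Entrez ID was looked up in RefSeq.

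Values were analysed as log2(signal + 16) without further normalization. Probe sets with a mean at or above the median of 5.22 were tested in 1 fit to 9 arrays with limma 3.58.1 (R 4.3.3; 6 residual and 2.69 prior degrees of freedom), adjusted by Benjamini-Hochberg per comparison, with a threshold of 0.05. The fit was tried on simulated data that gave all groups the same spread for a probe set. In the real arrays the mean variance of tested probe sets was 0.0411 in WSD+T, 0.33 in WSD and 0.152 in control. The trial thus does not cover unequal spreads. A gene in a list had its probe set with the highest mean. The number of arrays limits the precision.

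The members and lists were chosen with earlier results of these data known, and set out from general knowledge. All members were named whatever their values, with up to 4 called genes per list and comparison, a few fixed oocyte genes, and the 3 genes nearest to each member. Other settings tried were pseudocounts of 1 and 64, other filters and normalizations, fits to the compared groups, a replicate block, array weights, robust variances, averaged WSD+T replicates 1 and 3, and leaving out each array. Figures were drawn with matplotlib 3.10.9.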

Additional observations from a re-analysis of the deposited data

How the results depend on the processing

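The direction of each member in WSD+T vs control and in WSD+T vs WSD was the same under all settings that tested it, and the number of member probe sets called was not stable. In WSD+T vs control (1 called as reported) it was 0 with a pseudocount of 1, without a filter, with the filter at the 75th percentile (where ZP3 alone of the members was tested), with the replicate block and with WSD+T replicates 1 and 3 averaged. It was 3 in the fit to the compared groups and 3 with array weights, and 0 to 2 when 1 array was left out. Calls over all tested probe sets moved as well. From 1.97% as reported they went to 12.3% in the compared groups and 18% with array weights. They were 0.0114% with the replicate block, 0% with averaged replicates and 0% to 6.74% without 1 array. With a pseudocount of 1, without a filter and at the 75th percentile they were 1.34%, 0.786% and 2.71%. The part of this in the member counts was not tested. In WSD+T vs WSD (1 called) the member count was 0 with a pseudocount of 1, without a filter and at the 75th percentile. It was also 0 under median centring, cyclic loess, the compared groups, the replicate block and the averaged replicates. It was 2 with a pseudocount of 64, 5 with array weights, and 0 to 1 without 1 array. Of all tested probe sets 2.99% were called as reported, 3.84% with a pseudocount of 64, 1.14% under median centring and 2.53% under cyclic loess. The share was 0.0341% in the compared groups, 0.00379% with the replicate block, 0% with averaged replicates, and 0% to 5.87% without 1 array. In the F test (2 called) the member count was 1 with a pseudocount of 1, without a filter and with the replicate block. It was 0 at the 75th percentile and with averaged replicates, 4 with array weights, and 0 to 2 without 1 array. In WSD vs control (0 called) the member count was 1 with array weights, where 42.4% of all tested probe sets were called (14.5% as reported). The estimate of array weights stopped before its tolerance was reached, and called 59.1% of tested probe sets in WSD+T vs WSD.

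Differences that turned sign were all in WSD vs control and not called. BMP15 was -0.06 with a pseudocount of 1 and -0.10 with array weights, and over the 6 fits without 1 array in which it was tested it ran from -0.17 (control replicate 2) to 0.34, with -0.09 without control replicate 3. Without 1 array ZP3 ran from -0.13 (control replicate 3) to 0.51, with -0.12 without WSD replicate 2, and NLRP14 B ran from -0.69 to 0.00 (WSD replicate 3). The cause of these changes was not tested, except that left-out arrays leave fewer samples. FIGLA in WSD+T vs control ranged from 1.19 to 2.52 over 20 alternatives (adjusted p 0.0100 to 0.175, 11 past the threshold), and NLRP14 A in WSD+T vs WSD from 1.50 to 2.61 (6.72e-06 to 0.170, 6 past it). Median centring moved the median of all probe sets from -0.08 to 0.05 in WSD vs control and from 0.09 to -0.05 in WSD+T vs WSD. With the replicate block, FIGLA's adjusted p in WSD+T vs control was 0.0925 and that of NLRP14 A in WSD+T vs WSD 0.0739. Same-numbered arrays had correlations of residuals from -0.30 to 0.19, over 0.1 in 4 of 9 pairs, so the arrays were taken to share a number only. Probe sets called in WSD+T vs control numbered 520 as reported, 0 without WSD+T replicate 1 or 3, and 4746 with array weights.

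Signals near 21.2 limit what can be said of BMP15 and ZP1.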
